A study of Homo sapiens with 3 samples.

Results

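Insulin-like growth factor (IGF) binding proteins and IGF receptors were compared between 2 drug-resistant sublines of C4-2B and their parental line, on 1 Affymetrix HG-U133 Plus 2.0 microarray each. C4-2B is a human prostate cancer cell line of the LNCaP lineage that grows at castrate androgen levels. The family took in all probe sets, the groups of short probes that read 1 transcript or a few, whose platform annotation gives IGFBP1, IGFBP2, IGFBP3, IGFBP4, IGFBP5, IGFBP6, IGFBP7, IGF1R, IGF2R or IGF2. This gave 27 of 54675 probe sets and 10 genes. Of these genes, 9 had probe sets annotated to them alone, as had 19775 genes in all, while IGF2 was read only by probe sets annotated jointly to IGF2 and the read-through gene INS-IGF2. C4-2B MDVR cells are enzalutamide resistant and were kept in 20 µM enzalutamide, and C4-2B AbiR cells are abiraterone resistant and were kept in 10 µM abiraterone acetate. The third line, C4-2B parental, is the one both sublines come from, and the study's methods state that it was cultured in parallel with them. Each group is 1 cell line, and continued drug exposure and resistance cannot be told apart in these arrays.

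The genes were chosen by a measured value: IGFBP3 was the highest of all 19775 genes in AbiR relative to parental cells. Its value there is given as a description. With 1 array for each line there is no replicate error and no test, and every difference lies between arrays. The deposited values are RMA values on the log2 scale that were centred within each probe set, so that only distances between arrays can be read and no expression level. The labelled cell type could therefore not be checked against marker levels, and a gene that is silent cannot be told from one expressed equally in the 3 lines.

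IGF1 and IGF2 are secreted growth factors that signal through the receptor tyrosine kinase IGF1R. IGFBP1 to IGFBP6 bind both ligands tightly and can withhold them from the receptor or carry them to it, whereas IGFBP7 binds them weakly. IGF2R, the cation-independent mannose 6-phosphate receptor, takes IGF2 to lysosomes. In the prostate, IGFBP3 is known to restrain epithelial growth and to be cleaved by prostate-specific antigen, the product of KLK3.

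The promoters of IGFBP3 and IGF1R are shown because these members had the largest differences from parental cells. Each window runs from 250 bases before to 50 bases after the annotated gene start and comes from RefSeq, assembly GRCh38.p14, which matched 7 of the 10 genes. The IGFBP3 window is chr7:45921223-45921522 on the minus strand and the IGF1R window is chr15:98648289-98648588 on the plus strand. Capitals mark each match, on either strand, to the TATA motifs TATAAA and TATATA, the GC box GGGCGG, printed as its reverse complement where it lies on the other strand, and the steroid receptor half-site AGAACA. The second of these reads the same on both strands, and matches of the TATA motifs may overlap each other.
IGFBP3: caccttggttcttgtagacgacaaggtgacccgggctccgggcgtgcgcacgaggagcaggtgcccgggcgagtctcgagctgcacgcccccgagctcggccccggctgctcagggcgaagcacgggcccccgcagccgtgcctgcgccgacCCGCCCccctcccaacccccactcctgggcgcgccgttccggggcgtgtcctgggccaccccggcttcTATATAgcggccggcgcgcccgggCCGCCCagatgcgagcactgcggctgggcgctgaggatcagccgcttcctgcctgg
IGF1R: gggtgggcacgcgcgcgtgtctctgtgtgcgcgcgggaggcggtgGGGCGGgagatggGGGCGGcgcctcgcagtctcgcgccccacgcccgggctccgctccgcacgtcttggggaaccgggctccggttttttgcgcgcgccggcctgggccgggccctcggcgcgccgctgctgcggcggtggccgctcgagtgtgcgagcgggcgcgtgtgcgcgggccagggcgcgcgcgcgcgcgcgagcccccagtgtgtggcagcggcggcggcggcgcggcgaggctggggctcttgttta
The IGFBP3 window held 1 TATATA match and 2 GC boxes. The IGF1R window held 2 GC boxes and 0 matches to either TATA motif. Among 35116 promoter windows of this length, 3.99% held TATATA, 11.5% held TATAAA, 45.0% held the GC box and 14.8% held AGAACA, for which neither sequence had a match. The GC content was 74.7% for IGFBP3 and 79.7% for IGF1R, where the median of all windows was 58.7%. These matches describe the letters only.

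IGFBP3, the main carrier of IGFs in blood, was higher in both resistant lines than in parental cells. On probe set 210095_s_at the centred log2 value was −0.85 in MDVR, 0.85 in AbiR and −3.92 in parental cells. On probe set 212143_s_at it was −0.89 in MDVR, 0.89 in AbiR and −3.51 in parental cells. AbiR was highest and parental cells were far below both sublines on either probe set. The values of the resistant lines mirror each other around 0, as they would if the centring places 0 midway between the middle arrays. As the mean of its probe sets, IGFBP3 was 7.19-fold higher in MDVR than in parental cells (log2 difference 2.85 ± 0.32, SD between 2 probe sets), at rank 25 from the highest. In AbiR it was 24.0-fold higher (4.59 ± 0.26), and the next gene there, the neuronal membrane protein gene LRRN1, was at 4.55. All ± values are such SDs between probe sets of a gene on the same arrays and measure technical spread only. Between the resistant lines, IGFBP3 was 3.34-fold lower in MDVR than in AbiR (log2 difference −1.74 ± 0.059). Both probe sets carry the suffix _s, which marks probes that can match several transcripts, and IGFBP3 has no other.

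IGF1R, the signalling receptor, was lower in both resistant lines. On probe set 225330_at the centred log2 value was −1.77 in MDVR, −0.46 in AbiR and 2.99 in parental cells. On 203627_at it was 0.12 in MDVR, −0.12 in AbiR and 3.04 in parental cells. Parental cells were highest on both, and on 225330_at MDVR also lay below AbiR. On 203628_at the value was −0.078 in MDVR, −0.25 in AbiR and 1.35 in parental cells, and on 243358_at it was 0.042 in MDVR, −0.18 in AbiR and 1.08 in parental cells. Parental cells were again highest, by a smaller distance. The remaining probe set, 208441_at, had −0.033 in MDVR, 0.12 in AbiR and −0.056 in parental cells, so that its 3 arrays lay close together. Over the 5 probe sets the log2 differences ran from −4.76 to 0.023 for MDVR minus parental and from −3.45 to 0.17 for AbiR minus parental. The gene mean was 4.07-fold lower in MDVR (−2.03 ± 1.86) and 3.63-fold lower in AbiR (−1.86 ± 1.48), at ranks 64 and 49 from the lowest of all genes. MDVR minus AbiR was −0.17 ± 0.66, and only 225330_at was more than 2-fold apart there, being 2.48-fold lower in MDVR than in AbiR.

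**Figure D1:**
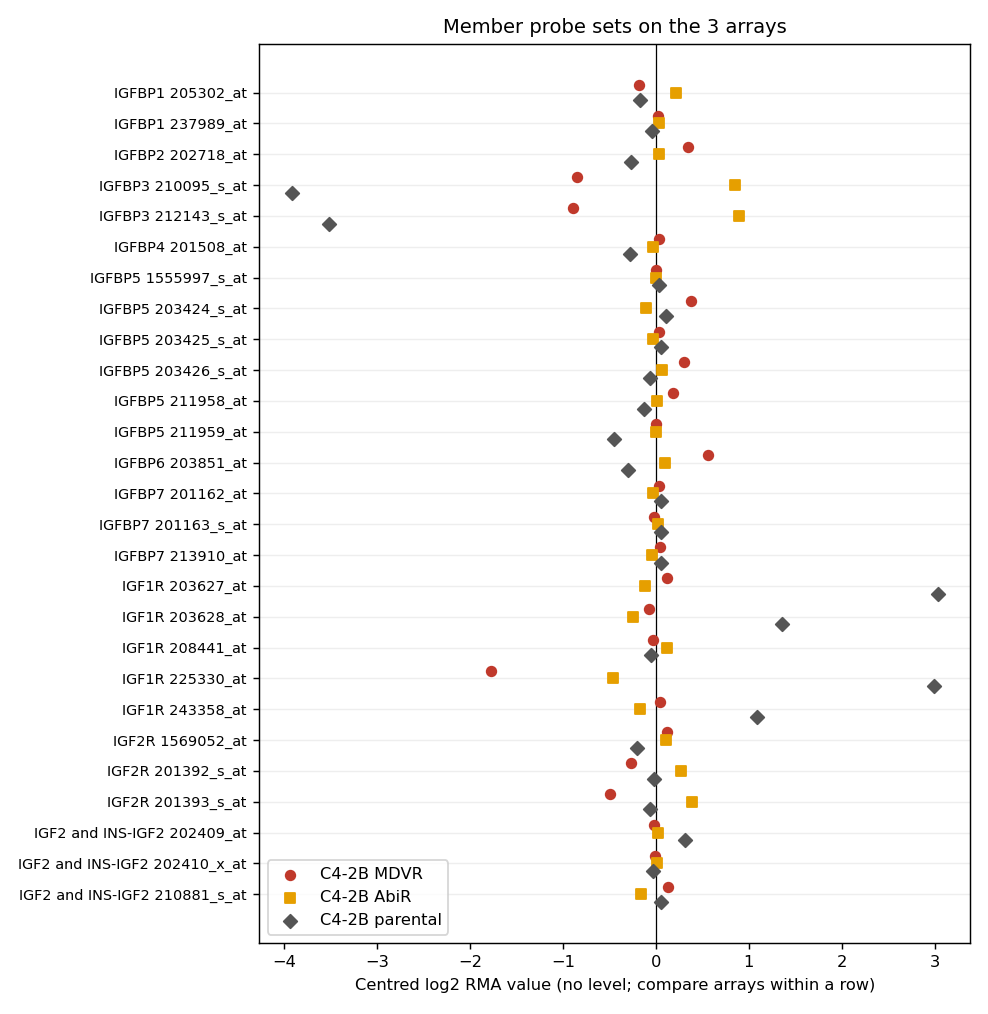
Centred log2 RMA values (x axis) of the 27 member probe sets (y axis) on the C4-2B MDVR, C4-2B AbiR and C4-2B parental arrays, where only distances within a row can be read. Parental cells lie far below the resistant lines on both IGFBP3 probe sets and above them on 4 of the 5 IGF1R probe sets.

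The other binding proteins stayed under 2-fold in each comparison. IGFBP6, which prefers IGF2 over IGF1, had centred values of 0.56 in MDVR, 0.092 in AbiR and −0.30 in parental cells. It was 1.82-fold higher in MDVR (log2 difference 0.87) and 1.31-fold higher in AbiR (0.39) than in parental cells. IGFBP2, a binding protein of many tissues, had centred values of 0.35 in MDVR, 0.028 in AbiR and −0.27 in parental cells. MDVR was highest and parental cells lowest for both genes, and IGFBP2 differed from parental cells by 0.62 in MDVR and 0.30 in AbiR. IGFBP4, the main substrate of the protease PAPPA, had centred values of 0.035 in MDVR, −0.035 in AbiR and −0.28 in parental cells, with differences of 0.32 in MDVR and 0.25 in AbiR. These 3 genes were each read by 1 probe set.

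IGFBP5, which also binds extracellular matrix, was read by 6 probe sets that went both ways. Their differences from parental cells ran from −0.029 to 0.46 in MDVR and from −0.22 to 0.46 in AbiR, and averaged 0.23 ± 0.20 in MDVR and 0.066 ± 0.24 in AbiR. The largest came from 211959_at, with centred values of −0.0013 in MDVR, 0.0013 in AbiR and −0.46 in parental cells. IGFBP1, a product mainly of the liver, averaged 0.029 ± 0.050 in MDVR and 0.23 ± 0.22 in AbiR. Its probe sets differed in AbiR minus parental, with 0.39 for 205302_at and 0.076 for 237989_at. IGFBP7 averaged −0.034 ± 0.032 in MDVR and −0.074 ± 0.035 in AbiR, and its 3 probe sets ran from −0.070 to −0.0090 in MDVR and from −0.099 to −0.035 in AbiR, all within the largest difference among spiked controls.

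On 2 of the 3 IGF2R probe sets the resistant lines lay on opposite sides of parental cells. On probe set 201393_s_at its centred value was −0.49 in MDVR, 0.39 in AbiR and −0.065 in parental cells. On 201392_s_at it was −0.27 in MDVR, 0.27 in AbiR and −0.018 in parental cells, in the same order. On 1569052_at both resistant lines were above parental cells, with 0.12 in MDVR, 0.11 in AbiR and −0.20 in parental cells. The gene means were −0.12 ± 0.39 in MDVR and 0.35 ± 0.087 in AbiR, and MDVR minus AbiR was −0.47 ± 0.45. The probe sets annotated to IGF2 and INS-IGF2 jointly cannot be assigned to IGF2 alone. Their differences from parental cells were −0.33 in MDVR and −0.30 in AbiR for 202409_at, 0.019 and 0.045 for 202410_x_at, and 0.071 and −0.22 for 210881_s_at.

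At least 2-fold differences were found for 2 of the 9 measured member genes in each resistant line against parental cells, where 3.33% of all genes reached this in MDVR and 1.88% in AbiR. In MDVR, 1 gene was higher and 1 lower, against 1.65% and 1.67% of all genes. In AbiR the counts were also 1 and 1, against 1.07% and 0.804%. The higher gene in both lines is IGFBP3, by which the family was picked. For MDVR minus AbiR 0 member genes were higher and 1, IGFBP3, was lower, where the shares of all genes were 0.875% and 1.13%, with 2.01% in either direction. IGFBP3 was picked for its AbiR minus parental value. The AbiR array enters MDVR minus AbiR too, and the parental array enters MDVR minus parental. Nothing is therefore read from the count of higher genes in either line or from the count for MDVR minus AbiR. By probe set, 2 of 27 were higher by 2-fold or more and 4 lower in MDVR, against 1.52% and 2.29% of probe sets on the array. In AbiR these were also 2 and 4, where the array had 1.33% and 0.936%, and for MDVR minus AbiR they were 0 and 3, where it had 0.89% and 2.01%. The 2 higher in MDVR, the 2 higher in AbiR and 2 of these 3 are the IGFBP3 probe sets, whose AbiR minus parental values chose the family. Nothing is read from these counts either. The 6 binding protein genes other than IGFBP3 had a median difference of 0.27 in MDVR and 0.24 in AbiR. Medians over all genes were 0.044 and −0.011. In each line 5 of the 6 were above 0. Close to 0, 56.7% of all genes lay above 0.0043 in MDVR and 46.8% above 0.0032 in AbiR. A shared rise of these 6 genes was not tested. Both comparisons rest on the same parental array.

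The scale of technical differences came from 45 spiked bacterial control probe sets. Their largest absolute difference was 0.35 for MDVR minus parental, where 11 of the 27 member probe sets lay beyond it, as did 25.1% of probe sets on the array. It was 0.20 for AbiR minus parental, with 17 members beyond it and 37.8% on the array. For MDVR minus AbiR it was 0.34, with 8 members and 24.8%. Each of these member counts includes both IGFBP3 probe sets, whose AbiR minus parental values chose the family. Nothing is read from these counts. In MDVR minus parental the 11 were 2 of IGFBP3, 4 of IGF1R, 2 of IGFBP5 and 1 each of IGFBP2, IGFBP6 and IGF2R. Spiked controls do not carry the differences between cultures.

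**Figure D2:**
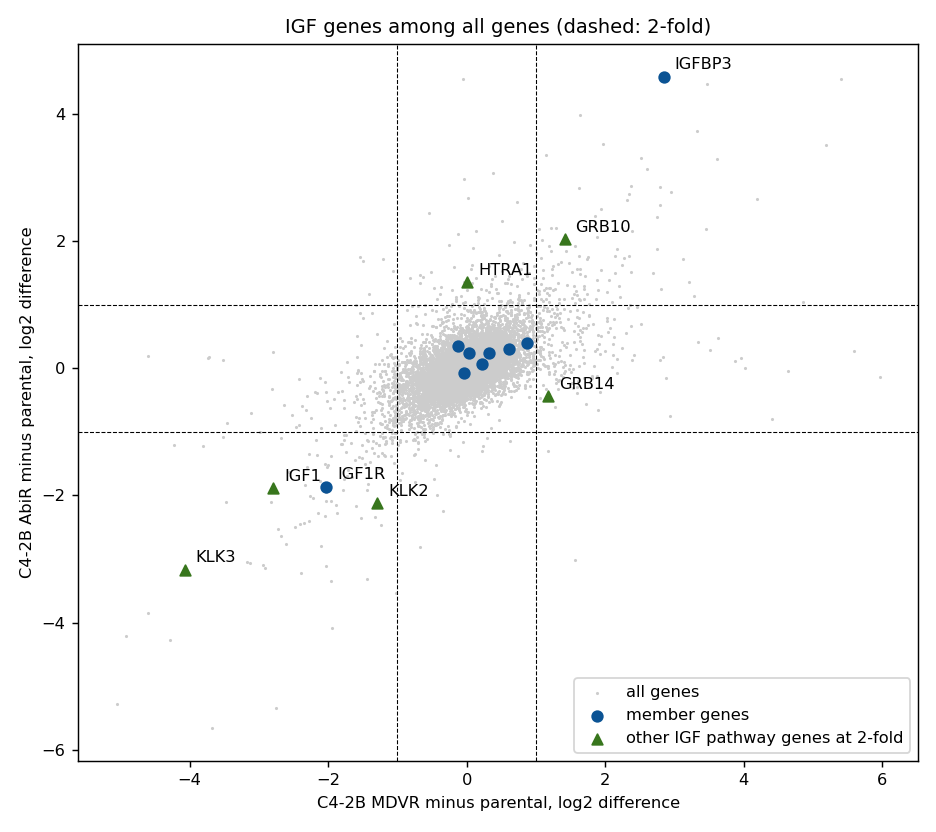
Log2 differences of all genes from the parental array, for C4-2B MDVR along x and for C4-2B AbiR along y, with 2-fold marked by dashed lines, the 9 member genes as blue circles and other IGF pathway genes at 2-fold in any comparison as green triangles. IGFBP3 lies at 2.85 and 4.59, IGF1R at −2.03 and −1.86, and the other 7 member genes stay inside the dashed lines.

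The wider IGF pathway was followed through a list of 44 genes, of which 42 were measured. In each resistant line, 2-fold or more above parental cells was reached by 2 of them and 2-fold or more below by 3. Over all genes these shares were 1.65% and 1.67% in MDVR and 1.07% and 0.804% in AbiR. The list medians were 0.080 in MDVR and 0.0044 in AbiR, beside 0.044 and −0.011 for all genes, and the list was drawn up with earlier results of these data known. Among ligands, IGF1 was lower in both lines. Its probe set 209541_at had centred values of −1.47 in MDVR, 0.92 in AbiR and 3.92 in parental cells, and 209540_at had −0.82 in MDVR, 0.82 in AbiR and 3.96 in parental cells. Parental cells were highest and MDVR lowest on both. Over 5 probe sets the differences ran from −5.38 to −0.055 in MDVR and from −3.13 to −0.14 in AbiR. The IGF1 mean was 6.92-fold lower in MDVR (−2.79 ± 2.23) and 3.70-fold lower in AbiR (−1.89 ± 1.24) than in parental cells, at ranks 25 and 48 from the lowest. INSR, the insulin receptor and closest relative of IGF1R, was at −0.059 ± 0.17 in MDVR and 0.17 ± 0.18 in AbiR over 5 probe sets.

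Among adapters, GRB10, which binds IGF1R and the insulin receptor and dampens their signal, was higher in both lines. All 4 probe sets were at least 2-fold above parental cells, with differences of 1.09 to 1.74 in MDVR and 1.54 to 3.21 in AbiR. Its mean was 2.67-fold higher in MDVR (1.42 ± 0.32) and 4.09-fold higher in AbiR (2.03 ± 0.79). The related adapter GRB14 had centred values of 1.40 in MDVR, −0.22 in AbiR and 0.22 in parental cells, which placed MDVR 2.27-fold above parental cells. The insulin receptor substrates, which link the receptors to PI3 kinase, stayed under 2-fold. IRS1 was at −0.21 ± 0.13 in MDVR and −0.097 ± 0.077 in AbiR, and IRS2 at 0.61 ± 0.40 in MDVR and −0.36 ± 0.084 in AbiR.

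Among proteases that can cleave IGF binding proteins, KLK3 and its neighbour KLK2 were lower in both lines. KLK3 was at −4.07 ± 3.23 in MDVR and −3.17 ± 2.36 in AbiR over 3 probe sets. Of these, 204582_s_at was at −6.24 in MDVR and −4.48 in AbiR, 204583_x_at at −5.61 and −4.57, and 231629_x_at at only −0.35 and −0.44. KLK2 was at −1.29 ± 1.19 in MDVR and −2.12 ± 1.93 in AbiR over 4 probe sets. The 1 without a suffix was at 0.20 in MDVR and 0.11 in AbiR. The serine protease gene HTRA1 had centred values of −0.67 in MDVR, 0.67 in AbiR and −0.68 in parental cells, so that only AbiR stood apart, 2.56-fold above parental cells. PAPPA was at 0.088 ± 0.21 in MDVR and −0.041 ± 0.13 in AbiR over 11 probe sets. Of its inhibitors, STC1 was at 0.88 ± 0.22 in MDVR and 0.076 ± 0.29 in AbiR, and STC2 at −0.30 ± 0.28 in MDVR and −0.43 ± 0.17 in AbiR. Proteins reported to bind IGFBP3 at the cell surface or in the nucleus, named after their values were seen, also stayed under 2-fold. TMEM219 was at 0.24 ± 0.44 in MDVR and 0.56 ± 0.35 in AbiR, LRP1 at 0.11 ± 0.18 and −0.17 ± 0.080, and RXRA at −0.0076 ± 0.55 and 0.40 ± 0.057. Besides IGF1, GRB10, GRB14, HTRA1, KLK2 and KLK3, the other 36 measured genes of the list were under 2-fold in each comparison.

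**Figure D3:**
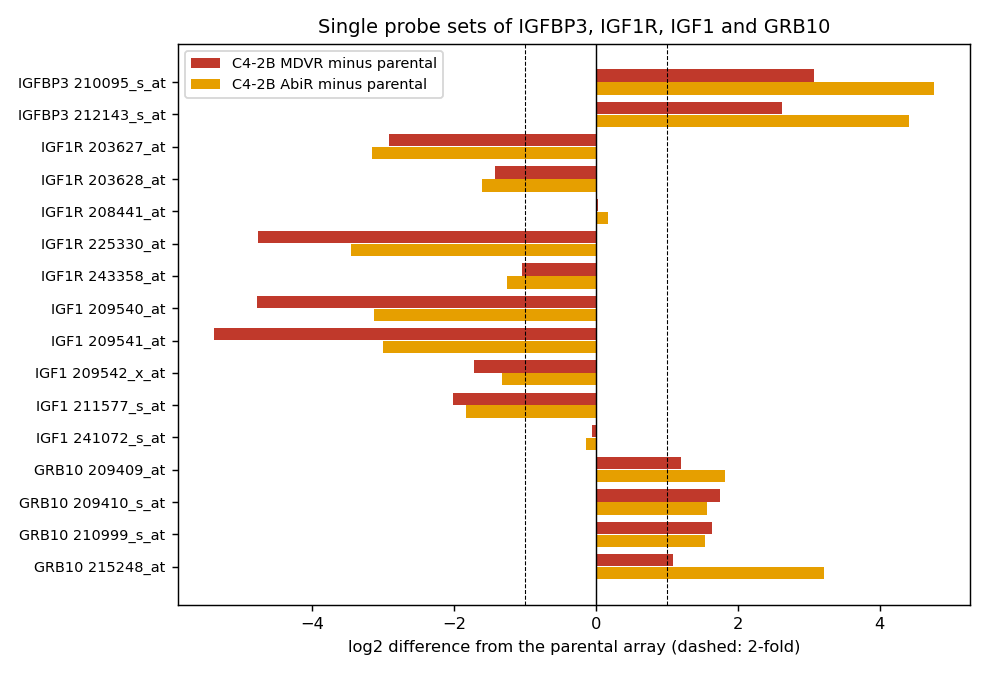
Each bar is the log2 difference of 1 probe set (y axis) of IGFBP3, IGF1R, IGF1 or GRB10 from the parental array (x axis), for C4-2B MDVR and for C4-2B AbiR, with 2-fold marked by dashed lines. The IGF1R probe set 208441_at and the IGF1 probe set 241072_s_at stay near 0, while the others of each gene lie beyond 2-fold on 1 side in both lines.

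**Figure D4:**
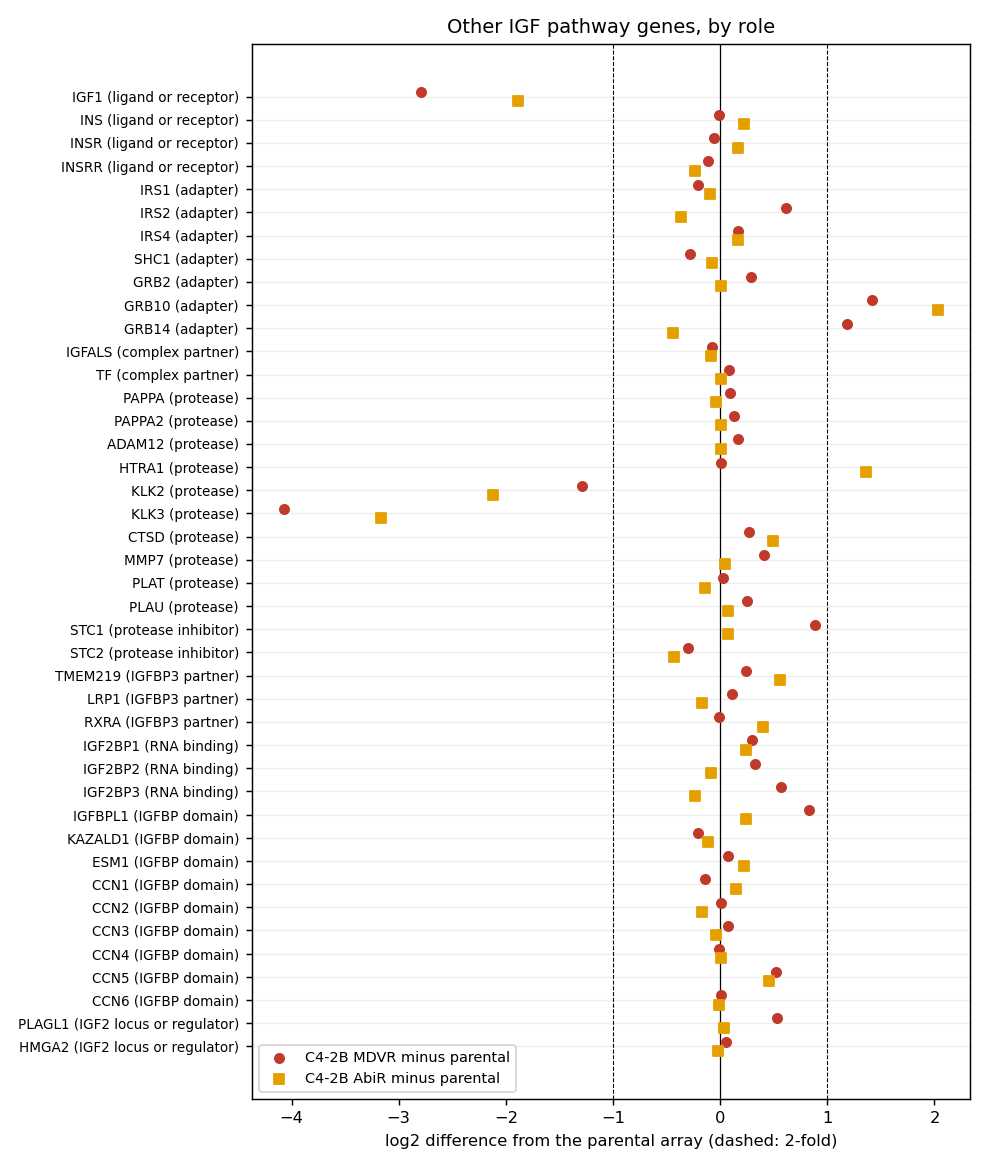
The 42 measured genes of the wider IGF pathway (y axis, with their role) by log2 difference from parental cells (x axis), with C4-2B MDVR as circles, C4-2B AbiR as squares and dashed lines at 2-fold. IGF1, KLK2 and KLK3 lie left of the lower dashed line and GRB10 lies right of the upper one in both lines.

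IGFBP3 lies beside IGFBP1 on chromosome 7, and IGFBP2 beside IGFBP5 on chromosome 2, with 0 annotated genes between either pair. None of the measured neighbours of the pair on chromosome 7 reached 2-fold. ADCY1 was at 0.35 ± 0.46 in MDVR and 0.33 ± 0.54 in AbiR, and SEPTIN7P2 at 0.035 ± 0.099 and 0.0092 ± 0.081. On the other side, TNS3 was at 0.36 ± 1.04 in MDVR and −0.34 ± 0.58 in AbiR, and LINC00525 at 0.089 and 0.26. Around IGFBP2 and IGFBP5, SMARCAL1 was at −0.15 in MDVR and −0.29 in AbiR, RPL37A at 0.18 ± 0.22 and −0.095 ± 0.15, IGFBP-AS1 at 0.32 and −0.097, and TNP1 at 0.22 and −0.059.

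The genes nearest to IGFBP3 by Euclidean distance over the 2 log2 differences from parental cells were the secreted phospholipase gene PLA2G2A (3.48 in MDVR and 4.48 in AbiR, distance 0.64), the sodium pump subunit gene ATP1B1 (3.33 in MDVR and 3.74 in AbiR, distance 0.98) and the serpin gene SERPINI1 (2.52 in MDVR and 3.30 in AbiR, distance 1.33). Nearest to IGF1R were CYP4F8 (−2.02 in MDVR and −1.95 in AbiR, distance 0.094), the glucuronidating enzyme gene UGT2B28 (−2.12 in MDVR and −1.77 in AbiR, distance 0.13) and the BMP receptor gene BMPR1B (−2.03 in MDVR and −2.08 in AbiR, distance 0.22). The nearness describes 3 arrays, with the parental array in both differences.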

How the data were processed

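RNA of 3 C4-2B lines was read on 1 array each. The authors deposited log2 values made with RMA, a method named in the submitters' notes whose version is not given in the sources used here. The deposited values are centred: 100% of probe sets met a median of 4 arrays at 0 (tolerance 2e-06), against 50.3% after shuffling each column. The fourth array was not analysed here. The number of arrays limits the precision.

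Platform annotation, updated by gene ID from RefSeq (GRCh38.p14, 99.9% found), gave 1 symbol to 41097 probe sets, several to 1801 and none to 11777. Gene values are means of log2 differences over probe sets of that gene alone, without a filter on low values. They were counted at 2-fold (Python 3.11.15, pandas 2.3.3). These means and counts were tested on simulated data in which all probe sets of a gene shifted alike. Other steps were not tested this way. The rule for named genes took all members, pathway genes at 2-fold in any comparison, 8 pathway genes given by name, the 3 nearest genes by pattern and 2 neighbours on each side. TMEM219, LRP1, RXRA and IGF2BP3 were named outside it. VTN and H19 of the pathway list had no probe set of their own. Members and lists were chosen with earlier results of these data known. The 7 alternatives changed scaling, choice of probe sets or the fold counted.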

Additional observations from a re-analysis of the deposited data

Results flagged for a closer look

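The search covered the means of 9 member genes and 42 genes of the wider pathway, and the 27 member probe sets. Among these, 4 had resistant lines that lay on opposite sides of parental cells, each by more than the largest difference among spiked controls. Of all probe sets, 25.1% in MDVR and 37.8% in AbiR lay beyond that difference in either direction. The share of all genes meeting the full rule was not counted, so the 4 are not read as particular to IGF genes. With 1 array for each line, the difference between the lines was not tested. GRB14 was at 1.18 in MDVR and −0.44 in AbiR, and MDVR minus AbiR was 1.62 by its single probe set. IRS2 was at 0.61 ± 0.40 in MDVR and −0.36 ± 0.084 in AbiR, and MDVR minus AbiR was 0.97 ± 0.32 over 2 probe sets, both of suffix _s. IGF2BP3, which encodes a protein that binds IGF2 mRNA and was named after its value was seen, was at 0.57 ± 0.40 in MDVR and −0.23 ± 0.19 in AbiR, and MDVR minus AbiR was 0.80 ± 0.56 over 4 probe sets. For IGF2R this held on probe set 201393_s_at, at −0.43 in MDVR and 0.45 in AbiR with MDVR minus AbiR at −0.88, and not for the gene mean. Single probe sets of the wider pathway are not counted here, and some of them also met this.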

How the results depend on the processing

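Of the values of single genes under 6 alternatives, 346 of 366 moved by no more than the technical spread. Part of this was fixed in advance. Changes of centring shift all genes of a comparison equally, by less than that spread, and adding jointly annotated probe sets left these values unchanged. A median of probe sets cannot lie further from their mean than their SD. Each of these settings thus kept all its 63 values within the spread. Genes with 1 probe set could not move under any choice of probe sets. Genes without suffixed probe sets could not move when those were left out. With 2 probe sets, neither can lie further from their mean than the SD. The 346 are therefore not read as robustness. The probe set of largest SD moved 14 values beyond the spread and left 49 within it. Over all 366 values the sign changed in 14, of which 12 were differences under 2-fold. Among these were IGF2R in MDVR (0.33 without suffixed probe sets) and IGF1R in MDVR minus AbiR (0.17 by the median of probe sets). Leaving out suffixed probe sets (_s, _x, _a) left 8 member genes and 31 of the 42 genes of the wider pathway, without IGFBP3, KLK3, IRS2 and STC1 among others, and the member counts fell to 0 higher in MDVR, 0 higher in AbiR and 0 lower in MDVR minus AbiR. KLK2 then stood at 0.20 in MDVR and 0.11 in AbiR by 1 probe set. The 31 genes of the wider pathway had 1 lower in MDVR, 1 lower in AbiR and 3 lower in MDVR minus AbiR. Of the 16790 genes left in all, 2.10%, 0.828% and 1.42% were lower in these comparisons. With the probe set of largest SD for each gene, IGF1R was at −4.76 in MDVR and −3.45 in AbiR, and 2 member genes were lower in MDVR minus AbiR. For MDVR minus AbiR, the wider pathway had 4 genes higher and 4 lower by that choice, against 1 and 1 by the mean. These counts were 2 and 2 by the median of probe sets, and 2 were higher after centring on hybridization controls. Over all genes the shares were 0.875% higher and 1.13% lower by the mean and 0.885% and 1.17% by the median. After centring on hybridization controls 0.925% were higher. At 1.5-fold, 3 member genes and 5 of the wider pathway were higher in MDVR than in parental cells, and 6 of the wider pathway were higher and 4 lower in MDVR minus AbiR. Over all genes, the probe set of largest SD gave 574 higher and 770 lower in MDVR, against 327 and 331 by the mean, 418 and 283 in AbiR, against 212 and 159, and 317 and 625 for MDVR minus AbiR, against 173 and 224. At 1.5-fold these counts were 952 and 1019, 656 and 498, and 548 and 784. No paired analysis was possible because each line has 1 array, and no replicate could be left out.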
